A study of Homo sapiens with 9 samples.

Results

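The genes described here are 10 members of the chemokine system: the CXC ligands CXCL1, CXCL2, CXCL3, CXCL5, CXCL6 and CXCL8, the CC ligands CCL2, CCL5 and CCL20, and the receptor CXCR4. They were chosen by the difference of CXCL8 between GATA3 knockdown and si-Control cells on these same arrays, so every comparison that uses the GATA3 knockdown arrays is a description: no P value is given for it, and counts of genes past the study's threshold (an unadjusted P of 0.05) stand only beside the share of all genes past it. The choice set no numerical limit, so no gene lay just inside or just outside it. The 10 genes were among 47450 gene names on the arrays, and 12 of the 58201 probes measured them, with a pair of probes each for CXCL1 and CXCL2.

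All 9 arrays held RNA from OEC-M1, a human oral squamous cell carcinoma line, and the study asked which genes depend on the transcription factors GATA3 and HIF-1α in hypoxia. The 3 si-Control samples received a non-targeting siRNA, another 3 an siRNA against GATA3 (GATA3 knockdown), and the last 3 an siRNA against HIF1A (HIF-1α knockdown). Every group, controls included, was transfected for 72 h and kept at 1% O2 for 18 h, so no array shows the cells in normal oxygen. The legends of the study name 1 siRNA per target for the arrays, so what the siRNA did and what the loss of its target did cannot be told apart. The labels do not say that replicates were separate cultures, and a P value here measures the spread between these arrays, which may be technical.

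Chemokines are small secreted proteins that guide cell movement through G protein-coupled receptors. CXCL8 (interleukin 8) and its relatives CXCL1, CXCL2, CXCL3, CXCL5 and CXCL6 carry the ELR amino acid motif. They signal through CXCR2, some of them also through CXCR1, and draw neutrophils and promote new vessels. Squamous carcinoma cells are a known source of these ligands. Their transcription is known to be switched on by NF-κB, together with AP-1 at CXCL8, after interleukin 1 or tumour necrosis factor.

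The targeted genes were checked first. The log2 intensity of GATA3 was 9.48 to 10.40 on the GATA3 knockdown arrays and 10.71 to 11.48 on the si-Control arrays, without overlap. HIF1A was at 14.13 to 14.58 on the HIF-1α knockdown arrays against 16.23 to 17.18 on the si-Control arrays. The median spot intensity ranged from 992.5 to 2807.5 over the si-Control arrays, from 1410 to 2452 after GATA3 knockdown and from 2132 to 3560 after HIF-1α knockdown, and 73.3% to 88.0% of probes were well above background. The dimmest array was si-Control replicate 3. For all 9 members measured on the 3 si-Control arrays it gave either the lowest or the highest control value. Among all genes so measured it was lowest for 39.8% and highest for 43.9%, so this held for most genes and is not particular to the members. Of 10 squamous epithelial markers, 7 were well above background on all 9 arrays but the basal keratin gene KRT5 was on none. Of 7 leukocyte markers, 4 were well above background on all 9 arrays, PTPRC (CD45) among them, so these lists do not by themselves separate the line from blood cells.

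Stretches of 150 bases just before the start sites are shown for 5 of the ligand genes, read 5′ to 3′ on the gene's strand from RefSeq on GRCh38.p14: for CXCL8 and CXCL2, which were the members that stood highest in GATA3 knockdown over si-Control, for CXCL1, the near copy of CXCL2 that did not, and for CXCL5 and CCL20 as more distant ligands. Capitals mark matches to an NF-κB core, GGNNTTTCC, on either strand and to an AP-1 site, TGANTCA.

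CXCL8 (chr4:73740419-73740568, plus strand): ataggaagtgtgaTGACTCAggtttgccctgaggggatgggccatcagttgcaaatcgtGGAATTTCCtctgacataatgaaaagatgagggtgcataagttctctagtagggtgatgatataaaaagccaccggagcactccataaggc

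CXCL2 (chr4:74099196-74099345, minus strand): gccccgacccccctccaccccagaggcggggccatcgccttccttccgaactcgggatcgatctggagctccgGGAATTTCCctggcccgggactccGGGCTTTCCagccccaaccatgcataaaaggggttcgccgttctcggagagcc

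CXCL1 (chr4:73869243-73869392, plus strand): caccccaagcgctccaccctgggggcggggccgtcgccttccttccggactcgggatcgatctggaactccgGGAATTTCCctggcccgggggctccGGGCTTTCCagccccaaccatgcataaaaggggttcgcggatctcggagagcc

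CXCL5 (chr4:73998678-73998827, minus strand): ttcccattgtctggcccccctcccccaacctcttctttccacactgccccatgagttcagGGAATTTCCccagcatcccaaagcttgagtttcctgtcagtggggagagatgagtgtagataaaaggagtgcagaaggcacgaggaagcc

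CCL20 (chr2:227813692-227813841, plus strand): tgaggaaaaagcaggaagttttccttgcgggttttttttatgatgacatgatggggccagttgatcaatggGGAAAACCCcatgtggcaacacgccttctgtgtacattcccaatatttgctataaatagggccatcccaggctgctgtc

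Searched over 250 bases upstream, the NF-κB core was found in the windows of all 7 ligand genes with an entry (CXCL1, CXCL2, CXCL3, CXCL5, CXCL6, CXCL8 and CCL20) and at 1 of 3 start sites of CXCR4, which makes 8 of 10 windows, whereas 5.49% of 35116 promoter windows of the same length hold it. In the ligand genes every match lay between bases -91 and -45 from the start site. CXCL1, CXCL2 and CXCL3 each had a pair of them. The AP-1 letters were found at CXCL8 alone, at -137 to -131 (6.57% of all windows), and the C/EBP letters TTGCNNAA at CXCL2 alone, at -188 to -181 (9.05% of all windows). Only exact matches were counted. The CXCL8 stretch holds ttgcaaat just before its NF-κB core, which differs from the C/EBP letters at the last letter, so CXCL8 is not shown to lack such a site. The hypoxia response core ACGTG was in none of the 10 windows and in 18.5% of all windows. GATAA, the centre of a GATA site, was in the windows of CXCL5, CXCL6 and CXCL8 and in 20.4% of all windows. It lay at -32 to -28 in CXCL5 and -31 to -27 in CXCL6, close to the start site, and at -162 to -158 in CXCL8. Whether GATA3 binds any of them was not tested. CXCL2 and CXCL1 were identical at 70.4% of aligned bases, CXCL1 and CXCL3 at 81.4% and CXCL5 and CXCL6 at 85.3%, whereas CXCL8 and CXCL1 reached 42.6%. A match is only a match of letters, and none of these arrays measured binding. The promoter table has no entry for CCL2 and CCL5.

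**Figure D1:**
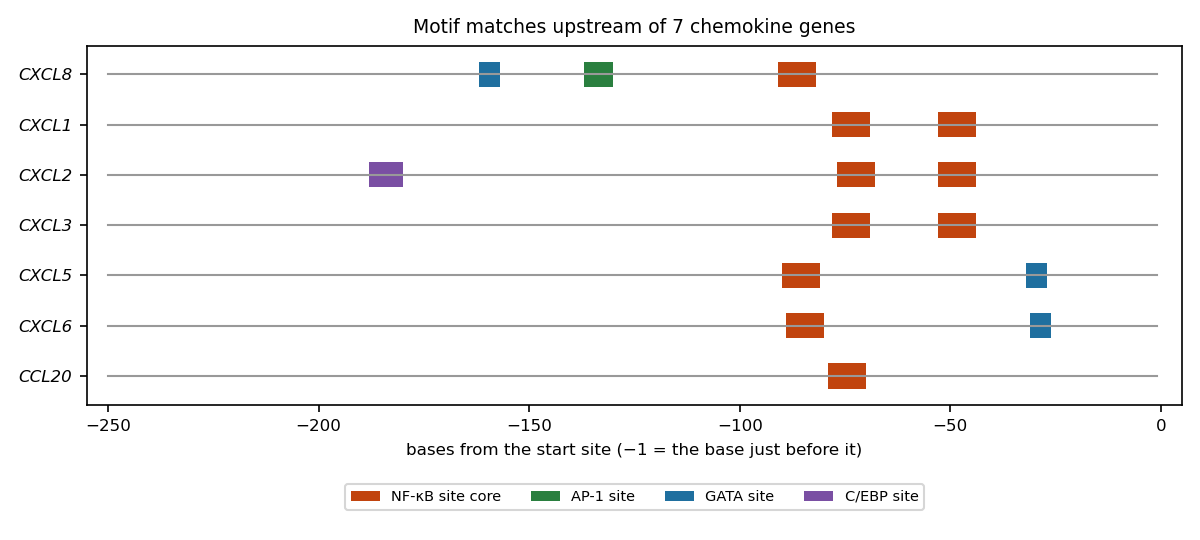
Matches to 4 motifs in the 250 bases upstream of 7 ligand genes; the x axis gives bases from the start site, each grey line is 1 gene's window and each bar is a match. The NF-κB core lies between -91 and -45 in all 7 windows and the AP-1 site is at CXCL8 alone.

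CXCL8 was at the edge of detection in si-Control cells and clearly measured after GATA3 knockdown. Its log2 intensity (after background correction and quantile normalization, the scale used for all levels below) was 7.14, 7.09 and 8.20 in si-Control replicates 1, 2 and 3, 11.75, 10.21 and 10.98 in GATA3 knockdown, and 7.18, 7.19 and 7.14 in HIF-1α knockdown. The GATA3 knockdown arrays all lay above the other 6, whereas the si-Control and HIF-1α knockdown arrays overlapped. Only 1 of 3 si-Control arrays (replicate 3) and 1 of 3 HIF-1α knockdown arrays (replicate 2) had the CXCL8 spot well above background, against 3 of 3 after GATA3 knockdown. The difference between GATA3 knockdown and si-Control was 3.51 on the log2 scale (standard error, SE, 0.41, n = 3 and 3) and that between GATA3 and HIF-1α knockdown was 3.82. Since most arrays of both reference groups had this spot near background, the sizes depend on how background was removed.

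The unscaled spot medians show the same split. They were 150, 122 and 153 intensity units in si-Control over a local background of 101, 87.5 and 79. In GATA3 knockdown they were 2589, 1391 and 1357, and in HIF-1α knockdown 184, 137 and 129.5. Si-Control replicate 3 had the lowest median spot intensity of all 9 (992.5), and the part of that in the CXCL8 value was not tested. Arrays with the same replicate number, 1 from each group, are taken here as 1 slide. Within slides 1, 2 and 3 so defined, CXCL8 was 4.61, 3.12 and 2.79 higher on the log2 scale in GATA3 knockdown than in si-Control. The size depended on the background step. With the scanner software's processed signal, each array scaled by its 75th percentile, it was 5.40 (SE 0.73). RNA of a whole culture cannot tell more CXCL8-producing cells from more CXCL8 RNA per cell.

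**Figure D2:**
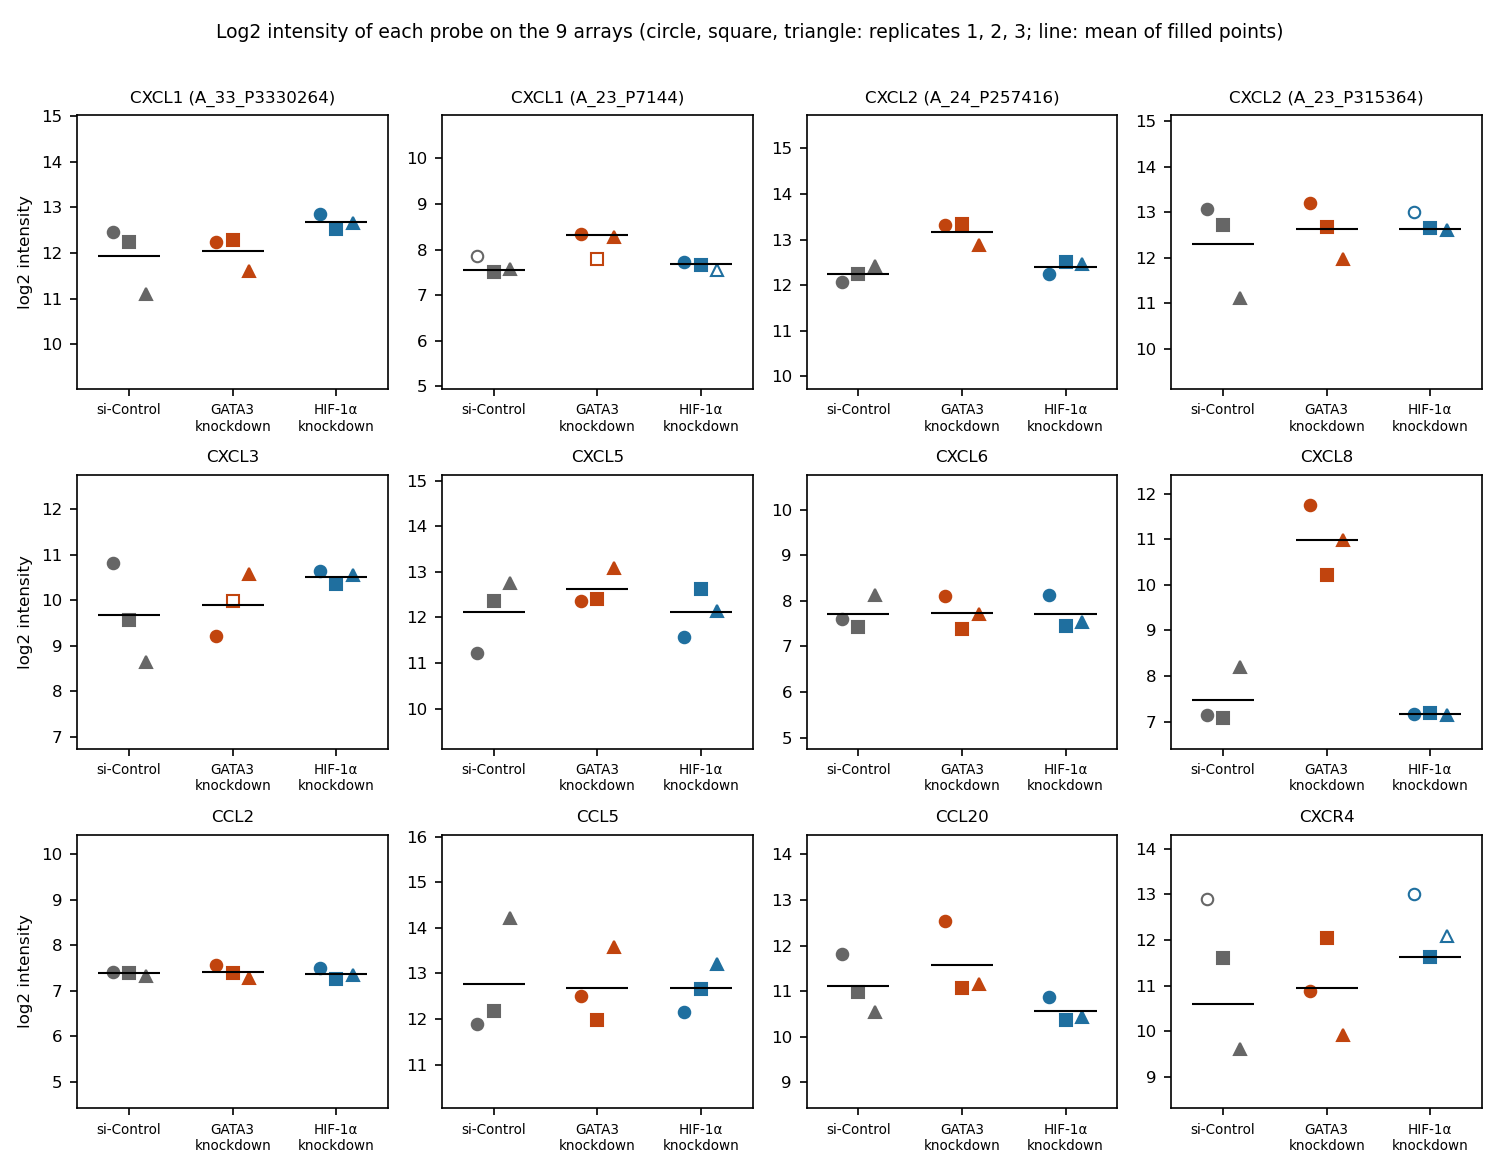
Log2 intensity of the 12 probes (panels, each spanning 6 log2 units) on the 3 arrays of each group; symbols are replicates 1 (circle), 2 (square) and 3 (triangle), lines are group means, and open symbols are probes left out because their spots were non-uniform. CXCL8 stands at 10.21 to 11.75 in GATA3 knockdown and at 7.09 to 8.20 on the other 6 arrays.

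CXCL2 (MIP-2α), a neutrophil attractant like CXCL8, was the other ligand whose GATA3 knockdown arrays all lay above the si-Control arrays. The probe with the higher mean, A_24_P257416, read 12.07, 12.24 and 12.42 in si-Control, 13.32, 13.33 and 12.88 in GATA3 knockdown and 12.24, 12.50 and 12.47 in HIF-1α knockdown. The difference of GATA3 knockdown from si-Control was 0.93 on the log2 scale (SE 0.23), or 1.91-fold, and within slides it was 1.25, 1.09 and 0.46. The other CXCL2 probe, A_23_P315364, did not show it. Its levels were 13.07, 12.72 and 11.12 in si-Control, 13.21, 12.68 and 11.99 in GATA3 knockdown, and 12.66 and 12.61 in replicates 2 and 3 of HIF-1α knockdown. The groups overlapped there, and the difference was 0.32 (SE 0.51). The probes disagreed on the processed signal too, where the differences were 0.98 (SE 0.27) and 0.35 (SE 0.54), and on that scale the latter probe had the higher mean and stood for the gene. Which probe follows CXCL2 mRNA was not tested. CXCL1, CXCL2 and CXCL3 are closely similar genes, so probes of this trio could take up each other's RNA and their values are uncertain to that extent.

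CXCL1 (GROα), also known as melanoma growth stimulatory activity, did not follow CXCL2. Its brighter probe read 12.47, 12.25 and 11.11 in si-Control, 12.23, 12.27 and 11.60 in GATA3 knockdown and 12.86, 12.53 and 12.66 in HIF-1α knockdown. GATA3 knockdown and si-Control overlapped and differed by 0.09 (SE 0.36), whereas the HIF-1α knockdown arrays lay above all si-Control and all GATA3 knockdown arrays. The dim probe of CXCL1 was well above background on 1 array of si-Control, on 2 of GATA3 knockdown and on 1 of HIF-1α knockdown. It read 7.52 and 7.57 in si-Control replicates 2 and 3, 8.35 and 8.28 in GATA3 knockdown replicates 1 and 3, and 7.72 and 7.65 in HIF-1α knockdown replicates 1 and 2. With the non-uniform spots kept, si-Control replicate 1 read 7.85 and GATA3 knockdown replicate 2 read 7.78, so the groups overlapped. Neither si-Control array in the fit was well above background, and no difference is read from this probe.

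CXCL3 (GROγ), the third gene of this trio, was the most scattered of the ligands that signal through CXCR2. It read 10.83, 9.57 and 8.66 in si-Control, 9.21 and 10.57 in GATA3 knockdown replicates 1 and 3, and 10.65, 10.36 and 10.55 in HIF-1α knockdown. The si-Control arrays alone spanned more than 2 log2 units, and all groups overlapped. Within slides 1 and 3 GATA3 knockdown differed from si-Control by -1.62 and 1.92, in opposite directions.

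CXCL5 (ENA-78) was measured well above background on all 9 arrays. Its levels were 11.21, 12.36 and 12.76 in si-Control, 12.37, 12.40 and 13.08 in GATA3 knockdown and 11.56, 12.63 and 12.13 in HIF-1α knockdown. The groups overlapped, and GATA3 knockdown was 0.51 above si-Control (SE 0.43), with 1.16, 0.03 and 0.33 on the 3 slides. CXCL6 (GCP-2), the near copy of CXCL5 and the neighbour of CXCL8 on chromosome 4, was close to background. It read 7.60, 7.43 and 8.13 in si-Control, 8.10, 7.38 and 7.72 in GATA3 knockdown and 8.13, 7.44 and 7.54 in HIF-1α knockdown, and only si-Control replicate 3 was well above background. No difference can be read from such levels. In chromosome order the cluster runs CXCL8, CXCL6, PF4V1, CXCL1, PF4, PPBP, CXCL5, CXCL3 and CXCL2, so the members with the highest values in GATA3 knockdown over si-Control lie at its opposite ends.

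Among the CC ligands, CCL20 (MIP-3α), which draws dendritic cells and Th17 cells through CCR6, read 11.81, 10.99 and 10.55 in si-Control, 12.54, 11.07 and 11.15 in GATA3 knockdown and 10.88, 10.37 and 10.43 in HIF-1α knockdown. By mean level the order was GATA3 knockdown, then si-Control, then HIF-1α knockdown, and neighbours in that order overlapped while the outer groups did not. GATA3 knockdown was 0.47 above si-Control (SE 0.44) and 1.02 above HIF-1α knockdown (SE 0.44). On every slide CCL20 was higher in GATA3 knockdown than in si-Control, by 0.73, 0.07 and 0.60, and lower in HIF-1α knockdown, with differences from si-Control of -0.93, -0.62 and -0.12.

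CCL5 (RANTES), an attractant of T cells and monocytes, was well above background on all 9 arrays. It read 11.89, 12.17 and 14.23 in si-Control, 12.50, 11.99 and 13.57 in GATA3 knockdown and 12.17, 12.67 and 13.21 in HIF-1α knockdown. In each group the array on slide 3 was the highest, the groups overlapped, and GATA3 knockdown differed from si-Control by -0.07 (SE 0.62). CCL2 (MCP-1), the main monocyte attractant, was not measured above background in any group. It was spotted 10 times on each array, at most 1 of the 10 spots was well above background, and its levels lay between 7.26 and 7.56 on all 9 arrays.

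CXCR4, the receptor of CXCL12 and a known hypoxia-responsive gene, was the member with the largest loss of spots. It too was spotted 10 times, and all 10 spots were non-uniform and left out on si-Control replicate 1 and on HIF-1α knockdown replicates 1 and 3. The remaining arrays read 11.61 and 9.61 in si-Control replicates 2 and 3, 10.89, 12.05 and 9.93 in GATA3 knockdown replicates 1, 2 and 3, and 11.63 in HIF-1α knockdown replicate 2. Of these, GATA3 knockdown replicate 2 had lost 8 of its 10 spots and HIF-1α knockdown replicate 2 had lost 3. The arrays overlapped, and GATA3 knockdown was 0.35 above si-Control (SE 0.76). With the non-uniform spots kept, the left-out arrays read 12.91, 13.01 and 12.09, and the same difference was -0.46 (SE 0.78). Its sign thus changed with these spots kept. Leaving out 1 array at a time gave -0.65 to 1.35, with the sign unchanged in 7 of 9 analyses. That count overstates stability. Leaving out a HIF-1α knockdown array, or si-Control replicate 1, which had no value, could not move this difference. Before normalization the CXCR4 spots averaged 10828 intensity units on si-Control replicate 1, 3254 on replicate 2 and 366 on replicate 3, so the controls alone spanned a wide range.

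**Figure D3:**
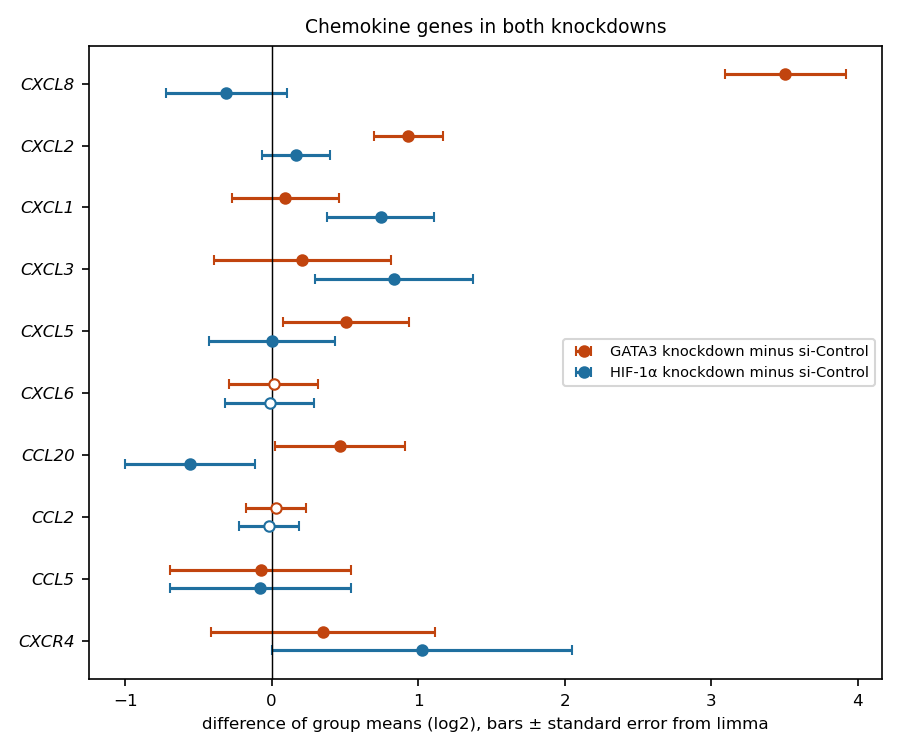
Difference of group means (log2, x axis) for each gene, orange for GATA3 knockdown minus si-Control and blue for HIF-1α knockdown minus si-Control; bars are ± SE from limma with 3 arrays per group less those left out (CXCR4 has 1 HIF-1α knockdown array), and open points mark genes that no array of 1 or both groups measured well above background. CXCL8 at 3.51 and CXCL2 at 0.93 stand to the right in orange, and no blue point is past the unadjusted threshold.

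Counted over the members, 2 of 10 (CXCL8 and CXCL2) were past the unadjusted P of 0.05 used by the study in GATA3 knockdown against si-Control, both higher, and 2 of the 8 measured on all arrays did not overlap. Over all genes 2.94% were past it there, 1.58% higher and 1.36% lower, and 6.01% did not overlap. Nothing is read from these member counts, because this contrast chose the genes. The median difference of the members was 0.28 and that of all genes -0.02. In GATA3 against HIF-1α knockdown, which uses the same GATA3 knockdown arrays, CXCL8, CXCL2 and CCL20 were past the threshold, 3 of 10 against 12.0% of all genes, and 4 of 8 did not overlap against 22.9% of all genes.

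HIF-1α knockdown against si-Control was tested. It uses other knockdown arrays than the contrast that chose the genes but the same si-Control arrays, so the value of CXCL8 is given as a description. None of the 10 members passed the unadjusted 0.05 in limma, where 5.23% of all genes did (1.97% higher, 3.27% lower), and none passed after Benjamini-Hochberg adjustment, nor did any gene on the arrays. The median difference of the members was -0.01, like that of all genes. The ELR ligands CXCL1 and CXCL3 had the largest positive values of the members measured on all arrays. CXCL1 was higher by 0.75 (SE 0.36, limma adjusted P = 0.82) and higher on all 3 slides, by 0.39, 0.29 and 1.55. With the slide, which is the replicate number, as a block in limma its SE was 0.29 and it passed the unadjusted threshold but not the adjusted one (limma adjusted P = 0.58). It was the only one of the 9 members measured on all arrays whose groups did not overlap, against 13.3% of all genes. CXCL3 was higher by 0.84 (SE 0.54, limma adjusted P = 0.82). Without si-Control replicate 1 both passed the unadjusted threshold, CXCL1 at 1.01 (SE 0.38) and CXCL3 at 1.41 (SE 0.45). That replicate had the highest control level of both genes. Without si-Control replicate 3, which had the lowest, CXCL1 fell to 0.33 and CXCL3 to 0.32, and neither passed.

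For CXCL8 the HIF-1α knockdown value was -0.31 (SE 0.41). It was 0.03, 0.10 and -1.06 on slides 1, 2 and 3, and without si-Control replicate 3 it was 0.05. The si-Control level of CXCL8 was so near background that a decrease could hardly be seen. CCL20 had the lowest value of the members, -0.56 (95% interval -1.54 to 0.43, limma adjusted P = 0.82). CXCL2 differed by 0.16 (95% interval -0.36 to 0.68), CXCL5 by -0.00038 (95% interval -0.96 to 0.96) and CCL5 by -0.08 (95% interval -1.46 to 1.30). These intervals hold changes of up to about 1 log2 unit or more for CXCL5 and CCL5, so the values do not show that the genes were unaffected. CXCR4 was 1.03 higher (SE 1.02, limma adjusted P = 0.83) on a single HIF-1α knockdown array against 2 controls. Within slide 2, the only one with both, it differed by 0.03.

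**Figure D4:**
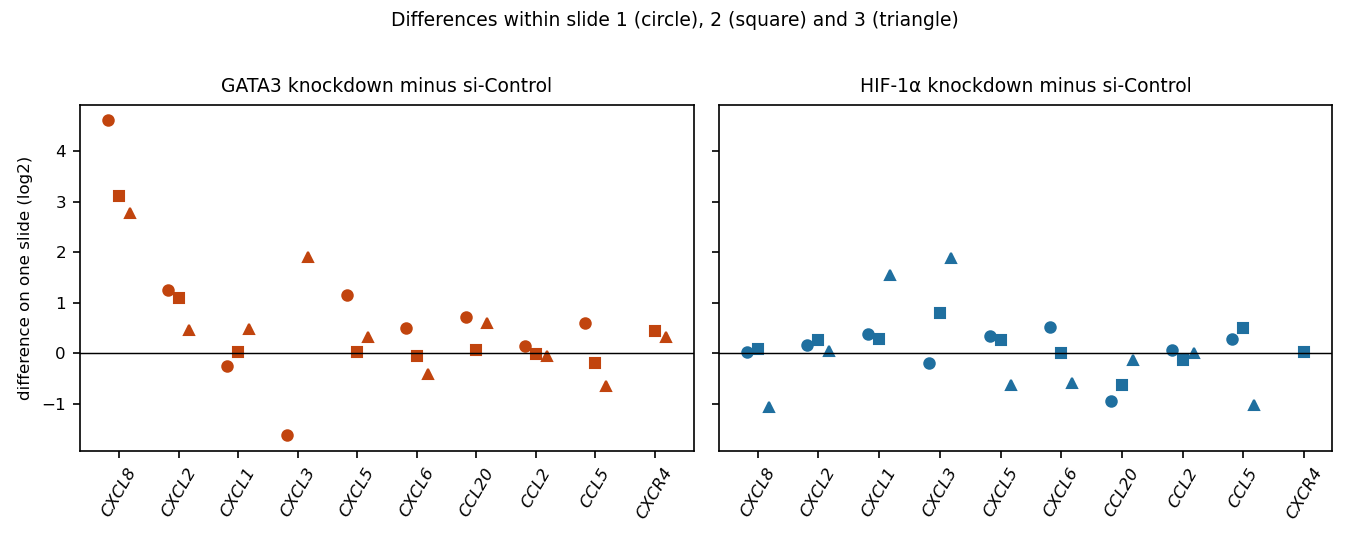
Difference from the si-Control array on the same slide (log2, y axis) for each gene in GATA3 knockdown (left) and HIF-1α knockdown (right); symbols are slides 1 (circle), 2 (square) and 3 (triangle). In GATA3 knockdown CXCL8 is up on all 3 slides, by 4.61, 3.12 and 2.79, and CXCL3 runs in opposite directions on slides 1 and 3.

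The receptors of the ELR ligands were examined next. CXCR1 was measured well above background on 6 arrays and read 8.27, 8.31 and 8.12 in si-Control, 10.70, 8.40 and 8.60 in GATA3 knockdown and 8.12, 8.20 and 8.14 in HIF-1α knockdown. The GATA3 knockdown arrays all lay above the rest, but the 1.00 difference (SE 0.51) came mostly from replicate 1 and was not past the threshold. CXCR2 read 11.63, 10.76 and 10.57 in si-Control and 10.87, 11.13 and 9.60 in GATA3 knockdown, which overlapped. Replicates 2 and 3 of HIF-1α knockdown read 10.95 and 10.97. For the brightest of 4 probes of CXCL12, the ligand of CXCR4, GATA3 knockdown differed by -0.36 (SE 0.42) and HIF-1α knockdown by 0.27 (SE 0.42, limma adjusted P = 0.88). In GATA3 knockdown the other CXCL12 probes gave -0.59 and -0.45, and 0.74 on a probe that was well above background on no array. For ACKR3, which scavenges CXCL12, the differences were -0.31 (SE 0.47) and 0.67 (SE 0.43, limma adjusted P = 0.82).

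Among the remaining chemokine genes, 26 of 30 listed ligands and all 22 listed receptors were measured. None of the 26 ligands was past the unadjusted threshold in limma in either knockdown against si-Control. Of the 22 receptors, 1 was past it after GATA3 knockdown, against 2.94% of all genes, and none after HIF-1α knockdown, against 5.23%. The former was CCR10, which binds CCL27 and CCL28. CCR10 read 9.52, 10.11 and 10.74 in si-Control and 11.17, 10.98 and 10.85 in GATA3 knockdown, which did not overlap, a difference of 0.88 (SE 0.30). Leaving out a HIF-1α knockdown array could not change this difference, only the spread estimated over all arrays. With those analyses counted, CCR10 was past the threshold in 7 of 9 that left out 1 array. It was not past the threshold without si-Control replicate 1, where the difference was 0.58, nor without GATA3 knockdown replicate 1. CCR10 was 9.58, 9.51 and 9.50 in HIF-1α knockdown. In GATA3 knockdown the median difference was -0.16 over the ligands and -0.05 over the receptors. In HIF-1α knockdown these medians were 0.05 and 0.08.

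Known inducers and regulators of CXCL8 were listed as well, among them the interleukin 1 genes, the NF-κB and AP-1 subunits and their inhibitors. Of 33 listed genes, 3 were past the threshold in GATA3 knockdown, all higher (IL1A, IL1B and CHUK), where 2.94% of all genes were. Of the 33, 24 were above 0 and 9 below, and the median difference was 0.33 against -0.02 over all genes. After HIF-1α knockdown 1 of 33 passed (TNFAIP3, lower), against 5.23% of all genes, 12 were above 0 and 21 below, and the median was -0.17. Both comparisons share the si-Control arrays. The former uses the contrast that chose CXCL8 and is a description.

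IL1A, the interleukin 1α gene, read 9.76, 10.503 and 11.099 in si-Control, 13.71, 11.65 and 13.60 in GATA3 knockdown and 9.50, 9.46 and 10.07 in HIF-1α knockdown. The GATA3 knockdown arrays lay above all others, by 2.53 over si-Control (SE 0.54), while HIF-1α knockdown overlapped si-Control (-0.78, SE 0.54, limma adjusted P = 0.82). IL1B, the interleukin 1β gene, read 9.51, 8.87 and 8.52 in si-Control, 10.71, 10.06 and 10.92 in GATA3 knockdown and 9.38, 9.24 and 9.38 in HIF-1α knockdown. Here too the GATA3 knockdown arrays lay above all others, by 1.59 over si-Control (SE 0.32), and HIF-1α knockdown differed by 0.37 (SE 0.32, limma adjusted P = 0.82). CHUK, which encodes the kinase IKKα of the NF-κB pathway, was 1.097 above si-Control (SE 0.45) in GATA3 knockdown, with 10.61, 11.01 and 11.23 against 11.39, 12.00 and 12.76. Leaving out a HIF-1α knockdown array could not change this difference, only the spread estimated over all arrays. With those analyses counted, CHUK was past the threshold in 5 of 9 that left out 1 array. It was not past the threshold without si-Control replicate 1 or 2 or without GATA3 knockdown replicate 2 or 3. The subunit genes NFKB1 and RELA were at 0.31 (SE 0.54) and 0.69 (SE 0.37) and were not past it, nor was TNF at 0.13 (SE 0.46).

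TNFAIP3, which encodes A20, an NF-κB target that damps the pathway, read 10.49, 12.04 and 13.62 in si-Control, 13.26, 11.80 and 13.43 in GATA3 knockdown and 10.26, 9.78 and 10.89 in HIF-1α knockdown. HIF-1α knockdown overlapped si-Control through replicate 1 of the latter, and the difference of -1.74 (SE 0.72) passed the unadjusted threshold but not the adjusted one (limma adjusted P = 0.82). It was lost in 4 of the 9 analyses without 1 array. These were the ones without si-Control replicate 2 or 3 and without HIF-1α knockdown replicate 1 or 2. Leaving out a GATA3 knockdown array could not change this difference, only the spread estimated over all arrays. In GATA3 knockdown TNFAIP3 differed by 0.78 (SE 0.72). Among the markers of other cell types, 1 of 6 fibroblast markers was past the threshold in GATA3 knockdown. In HIF-1α knockdown 1 of 7 leukocyte markers was. The former was DCN (a difference of -1.08, SE 0.37), which was not well above background on GATA3 knockdown replicates 1 and 3. The latter was ITGB2, at a mean of 8.62 in si-Control and 7.55 in HIF-1α knockdown (limma adjusted P = 0.82). No HIF-1α knockdown array was well above background for this gene. With those values raised to the lowest value well above background, the means differed 2.01-fold, without allowance for the spread between arrays. Si-Control replicate 3 had the highest control value, 9.52. None of the 5 endothelial or 10 squamous markers was past the threshold in either knockdown. The part of all these markers in the chemokine values was not tested.

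The genes whose levels ran most like CXCL8 over the 9 arrays were sought among 17995 genes well above background on at least 3 arrays. Pearson's r was 0.98 for LINC01583, 0.97 for UCN2 (urocortin 2), 0.97 for ASB13, 0.97 for C1S (a complement protease) and 0.96 for ZNF582. IL1A came next, sixth at 0.96, CXCL2 was 68th at 0.90 and IL1B 242nd at 0.84, whereas CCL20 reached 0.59 and CXCL1 -0.40. All of these points share the 3 GATA3 knockdown arrays that set CXCL8 apart, so the ranking mainly orders genes by that contrast. A gene well above background on those 3 arrays alone could also enter the ranking. LINC01583 read 9.52 to 10.06 in GATA3 knockdown against 7.71 to 8.01 in si-Control and 7.55 to 8.05 in HIF-1α knockdown. The other probe of ZNF582 differed by -0.30 in GATA3 knockdown, opposite to the 2.24 of the probe ranked here.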

How the data were processed

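The authors deposited, for each of the 9 arrays, spot intensities on a linear scale from Agilent Feature Extraction (version 10.5.1.1 per the submitters' processing notes), with median spot and background intensity, a processed signal and outlier marks. They also deposited a log2 table, which equals the log2 processed signal less 1 constant per array. The headers name GRCh37, and no coordinate of the arrays is used.

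In R 4.3.3 with limma 3.58.1, non-uniform spots were left out, the medians were background corrected (normexp, offset 50) and quantile normalized. Control spots were dropped, spots of a probe averaged, and the brightest probe stood for a gene. Accessions were matched to RefSeq symbols for 31104 of 58201 probes. A probe was well above background where at least 50% of its spots were so marked. All 9 arrays entered a single limma model (two-sided). The threshold was an unadjusted P of 0.05, with Benjamini-Hochberg adjustment over all genes beside it. The script recovered known changes in simulated data.

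The genes and lists were chosen with earlier results of these data known. All 10 members are named, with listed genes past the threshold (at most 5 per list, knockdown and direction), CXCR1, CXCR2, CXCL12, ACKR3, IL1A, IL1B and the 5 genes most correlated with CXCL8. NFKB1, RELA and TNF were named after their values were seen, as were the markers KRT5 and PTPRC. Replicate numbers come from the sample labels. Alternatives changed the background correction, scaling, probe filter, probe summary, replicate block, samples fitted and multiple testing. The number of arrays limits the precision.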

Additional observations from a re-analysis of the deposited data

How the results depend on the processing

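CXCL8 was higher in GATA3 knockdown than in both other groups under all 19 alternatives. Leaving out 1 array at a time gave 3.12 to 3.89 against si-Control and 3.43 to 4.202 against HIF-1α knockdown (log2). Against si-Control the difference was 5.40 with the processed signal at the 75th percentile and 5.40 with the authors' log2 table. Against HIF-1α knockdown these gave 4.79 and 4.81, and normexp without an offset gave 4.402. CXCL2 against HIF-1α knockdown reversed to -0.17 and -0.15 with the processed signal and the authors' table, where its other probe is the brighter and stands for the gene.

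The numbers of the replicates were tested as pairs, each number being taken as 1 slide. Deviations of same-numbered arrays correlated at -0.19 to 0.72, with 7 of 9 pairs over 0.1. Of the 9 arrays, 8 were closest to their own number. Most same-numbered arrays were thus alike, to a varying degree. The main fit left the pairing out, and the fit with the replicate block is given beside it. With the replicate block, 1 member (CXCL1) passed in HIF-1α knockdown, where 0 passed without it. The block moved the ligands and receptors from 1 to 2 in GATA3 knockdown and from 0 to 2 in HIF-1α knockdown, and the inducers from 3 to 8 and from 1 to 5. Over all genes it moved 1392 to 2358, 2462 to 3967 and, between the knockdowns, 5666 to 8847.

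Leaving out 1 array gave 0 to 2 members in HIF-1α knockdown, the most without si-Control replicate 1. For ligands and receptors it gave 0 to 5 in either knockdown, with 0 in GATA3 knockdown without si-Control replicate 1 and 5 without si-Control replicate 3, and 5 in HIF-1α knockdown without si-Control replicate 1. For inducers it gave 2 to 13 in GATA3 knockdown, with 13 without si-Control replicate 3 and 6 without GATA3 knockdown replicate 2, and 0 to 6 in HIF-1α knockdown, with 6 without si-Control replicate 1 and 0 without HIF-1α knockdown replicate 2. Over all genes it gave 939 to 5959 in GATA3 knockdown, 1398 to 4792 in HIF-1α knockdown and 2662 to 9682 between the knockdowns.

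For ligands and receptors in GATA3 knockdown the processed signal and the authors' table each gave 4, normexp without an offset 2, each probe on its own 2 and adjusted P 0. In HIF-1α knockdown the processed signal, the authors' table and the 75th percentile after normexp each gave 1. For inducers, adjusted P gave 0 in both knockdowns, and in HIF-1α knockdown the processed signal, the authors' table, the 75th percentile after normexp, the mean of all probes and each probe on its own each gave 2. Over all genes in GATA3 knockdown the processed signal gave 2875, the authors' log2 values 2855, a fit of the 6 arrays alone 911 and adjusted P 0. In HIF-1α knockdown adjusted P gave 0. Between the knockdowns a fit of 6 arrays gave 8595 and adjusted P 2. The cause of these shifts was not tested.

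The scaling moved the share of passing genes that were higher. It was 53.8% in GATA3 knockdown, but 76.9% with the processed signal, 75.8% with the authors' table and 69.7% with the 75th percentile after normexp. In HIF-1α knockdown 37.6% became 53.5% and 51.9% with the first 2 of these, and between the knockdowns 57.8% became 48.1%, 48.3% and 69.1%. The 75th percentile after normexp moved the median of all genes between the knockdowns to 0.15, and the processed signal moved it to 0.10 in HIF-1α knockdown. Relative to those shifts CXCL8 kept its direction in GATA3 knockdown. In HIF-1α knockdown CXCL8 lay between -0.60 and 0.61 under all alternatives. CXCL6 and CCL2 had no value under the filter on dim probes. Signal near background limits CXCL6, CCL2 and CXCL8 outside GATA3 knockdown, and left-out spots limit CXCR4.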
